A study of Mus musculus with 6 samples.

Results

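The 44 genes described here encode the machinery that copies DNA in S phase and the cyclins that open the way into it, and they were measured in MCT cells given the cytokine TWEAK or vehicle. They were chosen by name, as a list of DNA replication and G1/S genes, and each was represented by its brightest probe set, which gave 44 of the 22061 genes measured. MCT is a proximal tubular epithelial line derived from the kidney cortex of SJL mice. Subconfluent cells were held overnight without serum and then received TWEAK at 100 ng/mL for 6 h (3 arrays) or vehicle (3 arrays), in what the series calls independent experiments. All 6 samples are of the same untransfected line and the same serum-free medium, and the line stands in for tubular cells without the other cells of a kidney. TWEAK is a cytokine related to TNF that acts through the receptor Fn14, and the comparison asks how its addition changes transcript levels in tubular cells.

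In G1 phase the origin recognition complex (ORC), with Cdc6 and Cdt1, loads the Mcm2 to Mcm7 helicase onto origins, which licenses them. At the G1/S transition cyclin D and cyclin E kinases phosphorylate the retinoblastoma protein, which frees E2F factors to drive genes for replication and nucleotide synthesis. Helicase activation by the GINS complex and Mcm10 then lets primase, the DNA polymerases, the sliding clamp Pcna and its loader, replication factor C, copy both strands. Healthy tubular cells of the kidney rarely divide, and their return to the cell cycle is a known part of repair after injury.

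The start-site sequences of some of these genes are shown first because they carry the letters that E2F factors and the CCAAT-box factor are known to bind. RefSeq promoter windows (GRCm38.p6, 250 bases before to 50 after a start site) matched 34 of the 44 genes by symbol. E2F letters (TTTGGCGC, TTTCCCGC, TTTGCCGC or TTTCGCGC, either strand) stood in a window of 13 of the 34, or 38.2%, against 2.60% of the 27025 genes with a window. The CCAAT box (CCAAT, either strand) stood in 21 of the 34, or 61.8%, against 41.1% of all genes. The CHR element (TTTGAA, either strand), known from genes of late cell cycle phases, stood in 3 of the 34 (8.82%, against 20.2% of all genes), and the NF-kB consensus in 2 (5.88%, against 9.55%). Matches overlapped in Mcm5 and Mcm6 (E2F with E2F) and in Mcm7 (E2F with CCAAT, and NF-kB with NF-kB). A match in these letters is a description and not a site.

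In the sequences below, capitals mark E2F letters (TTTGGCGC and its variants or their complements) and CCAAT or its complement ATTGG. The set holds the gene called lower under TWEAK (Rfc1), a pair of helicase subunits whose windows both hold E2F letters (Mcm6 and Mcm5), an ORC subunit (Orc3) and a helicase loader (Cdc6).
Rfc1 (chr5:65335590-65335889, - strand): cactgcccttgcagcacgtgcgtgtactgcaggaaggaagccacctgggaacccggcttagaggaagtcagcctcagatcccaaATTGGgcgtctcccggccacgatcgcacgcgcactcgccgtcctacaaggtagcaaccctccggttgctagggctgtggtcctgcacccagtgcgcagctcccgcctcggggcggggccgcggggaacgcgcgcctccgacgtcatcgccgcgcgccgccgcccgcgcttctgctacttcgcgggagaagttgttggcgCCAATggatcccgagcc
Orc3 (chr4:34614893-34615192, - strand): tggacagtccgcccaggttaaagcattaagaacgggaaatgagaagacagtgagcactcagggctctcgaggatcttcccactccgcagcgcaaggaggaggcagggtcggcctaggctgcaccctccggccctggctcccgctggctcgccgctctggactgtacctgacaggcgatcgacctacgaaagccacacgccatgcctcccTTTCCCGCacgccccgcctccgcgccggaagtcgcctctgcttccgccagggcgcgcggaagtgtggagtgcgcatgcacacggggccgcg
Mcm6 (chr1:128359656-128359955, - strand): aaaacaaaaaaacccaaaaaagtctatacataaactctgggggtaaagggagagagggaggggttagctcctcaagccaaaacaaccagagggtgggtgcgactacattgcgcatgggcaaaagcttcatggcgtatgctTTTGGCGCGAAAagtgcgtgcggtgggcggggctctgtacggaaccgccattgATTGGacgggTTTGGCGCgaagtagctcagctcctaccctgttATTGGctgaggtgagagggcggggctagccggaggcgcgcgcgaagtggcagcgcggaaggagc
Mcm5 (chr8:75109259-75109558, + strand): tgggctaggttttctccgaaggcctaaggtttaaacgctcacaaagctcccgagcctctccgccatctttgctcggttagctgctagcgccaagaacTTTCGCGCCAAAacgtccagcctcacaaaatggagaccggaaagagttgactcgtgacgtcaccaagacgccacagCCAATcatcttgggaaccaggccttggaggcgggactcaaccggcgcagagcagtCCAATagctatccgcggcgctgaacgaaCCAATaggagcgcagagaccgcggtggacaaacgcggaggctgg
Cdc6 (chr11:98907901-98908200, + strand): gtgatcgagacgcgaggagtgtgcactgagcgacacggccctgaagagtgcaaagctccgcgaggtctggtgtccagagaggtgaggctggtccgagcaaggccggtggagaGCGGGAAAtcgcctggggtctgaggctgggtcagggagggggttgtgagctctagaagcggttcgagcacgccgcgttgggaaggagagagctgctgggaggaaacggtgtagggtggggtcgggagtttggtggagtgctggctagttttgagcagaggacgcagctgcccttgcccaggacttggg

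Rfc1 carried CCAAT-box letters on both sides of its start site and no E2F letters, whereas Orc3 and Cdc6 carried E2F letters and no CCAAT box. Of the 13 genes with E2F letters, Orc3, Mcm6 and Pola1 had an unadjusted p under 0.05 and lay lower under TWEAK. The other 10 (Orc1, Cdc6, Cdt1, Mcm3, Mcm5, Mcm7, Gins3, Pold1, Rfc3 and Lig1) did not reach it. CCAAT letters stood in 11 of the 13 genes that had a window and lay lower at that level, and in 9 of the 20 that did not reach it. These counts were made after the values were seen and have no test.

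Values are log2 RMA values per array, with a median per array between 6.12 and 6.18 over all probe sets. RNA of the line held kidney epithelial transcripts such as Pax8 (10.67 in control cells), Krt18 (11.08) and Cdh16 (10.29). Transcripts of mature proximal tubule lay near or below the array median, with Slc34a1 at 6.15, Cubn at 6.13 and Slc22a6 at 5.16. None of 20 markers of leukocytes, endothelium, fibroblasts and pericytes, distal nephron or podocytes passed limma's test (0 of 20, with 1 at an unadjusted p under 0.05), and their means over the arrays lay between 4.09 and 7.46. Of their differences 19 were positive, with a median of 0.10, and their part in the results was not tested. RMA values have no zero, so absence cannot be shown.

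Of the 44 genes, 1 passed limma's test over all genes: Rfc1, the large subunit of the clamp loader, fell under TWEAK, and 0 genes rose. The test was limma with Benjamini-Hochberg adjustment over 22061 genes at a threshold of 0.05, by which 1.71% of all genes were called lower and 1.28% higher (378 and 283 genes). With the arrays centred on their medians these counts were 269 and 308, and after cyclic loess 84 and 183. At an unadjusted p under 0.05, 18 of the 44 lay lower and 2 (Ccnd1 and Mcm10) lay higher, against 13.1% and 8.15% of all genes. In 19 of the 44 all TWEAK arrays lay below all control arrays and in 3 all lay above, against 13.5% and 12.9% of all genes. The median difference (TWEAK minus control) was -0.18 on the log2 scale, with quartiles of -0.47 and 0.02, against a median of 0.03 and quartiles of -0.10 and 0.12 over all genes. In RNA from whole cultures, fewer cells in S phase and less RNA per cell cannot be told apart.

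The differences were uneven across the machinery, as the plot of differences by role shows. Differences of -0.35 or below were found for Orc2 to Orc6, Mcm4, Gins1, Pola1, both primase subunits, Pcna, Rfc1, Rfc4, Rpa3 and both ribonucleotide reductase genes. Mcm2, Mcm3, Mcm5, Mcm7, Cdc6, Cdt1, Fen1, Lig1, Pola2, Ccne1, Gins2, Rpa2, Orc1 and E2f1 differed by less than 0.10 in either direction.

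**Figure D1:**
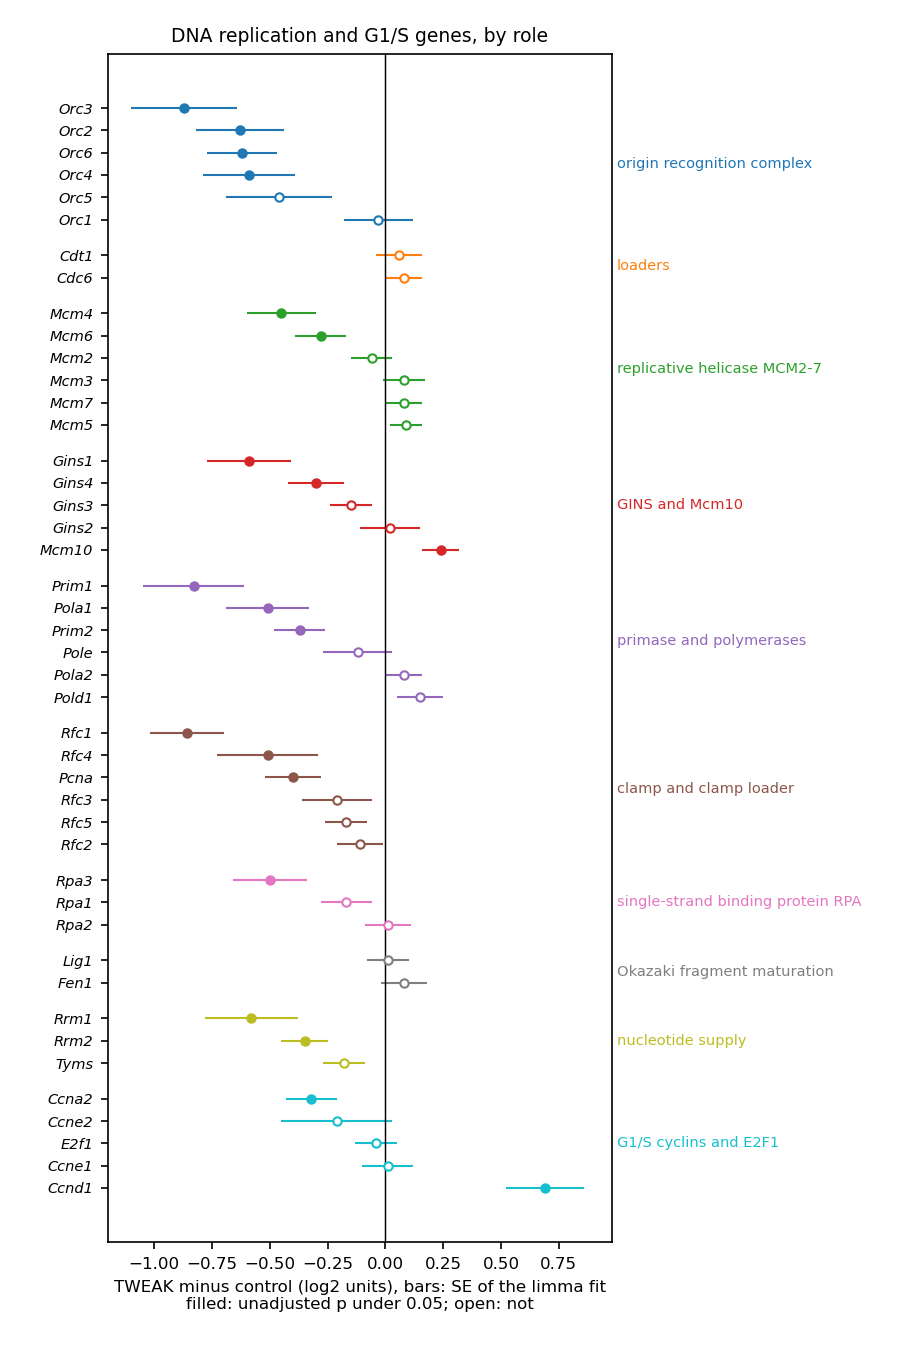
Difference between TWEAK and control (log2 units, horizontal axis) for each of the 44 genes, grouped and coloured by role, with the SE of the limma fit as bars and filled points for an unadjusted p under 0.05. Orc3 (-0.87) and Rfc1 (-0.86) lie farthest to the left and Ccnd1 (0.69) farthest to the right, and the 2 origin loaders Cdt1 and Cdc6 lie near 0.

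Among the licensing genes all 6 ORC differences were negative and those of both loaders were positive. Orc3, a core ORC subunit, read 7.66, 8.19 and 8.45 in control 1, 2 and 3 and 7.37, 7.50 and 6.81 in TWEAK 1, 2 and 3. The groups did not overlap, with control 1 nearest to the TWEAK arrays and TWEAK 3 lowest. The Orc3 difference was -0.87 (SE 0.23, 1.83-fold lower), with an adjusted p of 0.0780 in limma that missed the threshold. Orc6, the subunit that also has a role in cytokinesis, read 9.57, 9.95 and 9.99 in the controls and 9.47, 9.15 and 9.04 with TWEAK. Again the groups were apart, by only the step from control 1 to TWEAK 1. Orc6 differed by -0.62 (SE 0.15, adjusted p = 0.0650 in limma).

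Orc2 read 7.83, 8.13 and 8.50 in the controls against 7.76, 7.56 and 7.25 with TWEAK, a difference of -0.63 (SE 0.19, limma adjusted p = 0.0990). The Orc4 values were 6.27, 6.40 and 6.99 in the controls and 5.68, 6.14 and 6.06 with TWEAK, and its difference was -0.59 (SE 0.20, limma adjusted p = 0.130), or -0.38 without control 3. In both genes control 3 was the highest array and the groups did not overlap. Orc5 overlapped between groups, with TWEAK 1 at 7.76 above control 1 at 7.56 and control 2 at 7.66, and differed by -0.46 (SE 0.23), which was -0.23 without control 3 and -0.29 without TWEAK 3. Orc1, whose protein is the ORC subunit known to be regulated through the cell cycle, read 7.64 ± 0.24 in control and 7.61 ± 0.22 in TWEAK cells (SD, n = 3) and differed by -0.03 (SE 0.15). The median of the 6 ORC genes was -0.61, and it was -0.41 without control 3. In each fit that left out an array 4 or 5 of the 6 had an unadjusted p under 0.05. In those fits 2143 to 3141 of all 22061 genes lay lower at that level.

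The loaders Cdc6, an ATPase that joins ORC on the origin, and Cdt1, which brings in the helicase, differed by 0.08 (SE 0.08) and 0.06 (SE 0.10). Cdc6 read 8.94, 9.03 and 8.92 in the controls and 8.95, 9.12 and 9.06 with TWEAK, so that the groups overlapped.

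The helicase subunits split. Mcm4 read 9.84, 10.06 and 9.99 in the controls and 9.63, 9.73 and 9.18 with TWEAK, lowest in TWEAK 3 and with no overlap, a difference of -0.45 (SE 0.15, limma adjusted p = 0.120) that was -0.29 without TWEAK 3. Mcm6 was also apart between groups, at 9.94 ± 0.21 and 9.67 ± 0.05 (SD, n = 3), and differed by -0.28 (SE 0.11, limma adjusted p = 0.206), or by -0.16 without control 3. Mcm5 lay the other way, at 11.51, 11.57 and 11.53 in the controls against 11.63, 11.65 and 11.61 with TWEAK, without overlap but by only 0.09 (SE 0.07). Mcm2, Mcm3 and Mcm7 differed by -0.06 (SE 0.09), 0.08 (SE 0.09) and 0.08 (SE 0.08), and their groups overlapped. The products of these 6 genes form a ring with 1 copy of each, and the median of the 6 transcripts was 0.01.

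Among the genes that turn the loaded helicase on, Mcm10, a scaffold between helicase and polymerase, was the other gene on the higher side. It read 9.62, 9.52 and 9.60 in the controls and 9.82, 9.80 and 9.83 with TWEAK, tight within both groups and with no overlap. The Mcm10 difference was 0.24 (SE 0.08, limma adjusted p = 0.117). The GINS subunits, which complete the active helicase, differed by -0.59 (SE 0.18) for Gins1, -0.30 (SE 0.12) for Gins4 (-0.18 without TWEAK 3), -0.15 (SE 0.09) for Gins3 (-0.09 without control 3) and 0.02 (SE 0.13) for Gins2. Gins1 read 8.68, 8.96 and 9.13 in the controls and 8.48, 8.58 and 7.96 with TWEAK, where TWEAK 3 stood 0.62 below TWEAK 2. Its limma adjusted p was 0.106.

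Primase, which lays the RNA primers of each new strand, lay lower in both subunits. Prim1, the catalytic subunit, read 8.91, 9.37 and 9.62 in the controls and 8.72, 8.62 and 8.07 with TWEAK. Control 1 and TWEAK 1 were the nearest arrays of the groups, which did not overlap. The Prim1 difference was -0.83 (SE 0.22, 1.77-fold lower, limma adjusted p = 0.0744). Prim2, the large subunit, read 10.09, 10.07 and 10.34 in the controls against 9.65, 9.91 and 9.81 with TWEAK, a difference of -0.37 (SE 0.11, limma adjusted p = 0.0945).

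Pola1, the catalytic subunit of DNA polymerase alpha, had the widest range among the control arrays after Orc3, at 6.19, 6.38 and 6.96, and read 5.90, 6.04 and 6.06 with TWEAK. It differed by -0.51 (SE 0.18, limma adjusted p = 0.152), and by -0.28 in the fit without control 3. Its partner Pola2 differed by 0.08 (SE 0.08). The catalytic subunits of the other replicative polymerases, Pold1 (lagging strand) and Pole (leading strand), differed by 0.15 (SE 0.10) and -0.12 (SE 0.15), with Pole spread over 0.66 among the TWEAK arrays.

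The clamp and its loader held the gene that passed the test. Rfc1 read 7.91, 8.26 and 8.16 in the controls and 7.31, 7.52 and 6.90 with TWEAK. All TWEAK arrays lay below all controls, and TWEAK 3 was the lowest. Rfc1 fell by 0.86 on the log2 scale (SE 0.16, 1.82-fold), from 8.11 ± 0.18 to 7.25 ± 0.32 (SD, n = 3), with a limma Benjamini-Hochberg adjusted p of 0.0409. The call was lost after cyclic loess (adjusted p = 0.0627) and with adjustment over probe sets (0.0691). It was also lost without control 2 (adjusted p = 0.147), TWEAK 1 (0.114), control 3 (0.110) or TWEAK 3 (0.0995), and was kept without control 1 (0.0221) or TWEAK 2 (0.0473). The difference itself was -0.69 or further from 0 in these 6 fits, at unadjusted p of 0.00396 or less. In the authors' deposited table the Rfc1 false discovery rate was 0.0691 at a ratio of 0.555, and 0 of the 44 genes were under 0.05.

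The small loader subunits Rfc2 to Rfc5 differed by -0.11 (SE 0.10), -0.21 (SE 0.15), -0.51 (SE 0.22) and -0.17 (SE 0.09). With 1 array left out Rfc2 ran from -0.17 to -0.06, Rfc3 from -0.32 to -0.10 and Rfc4 from -0.69 to -0.29, the last without TWEAK 3. Rfc4 read 10.70, 11.15 and 11.30 in the controls against 10.66, 10.86 and 10.10 with TWEAK, so that control 1 fell among the TWEAK arrays. Pcna, the clamp that tethers polymerases to DNA, read 12.05, 12.24 and 12.45 in the controls and 11.95, 11.74 and 11.85 with TWEAK. The groups did not overlap, and the difference was -0.40 (SE 0.12, limma adjusted p = 0.0986). The 2 probe sets named Pcna held the same values in all 6 arrays and were counted once, which leaves the Pcna value uncertain.

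**Figure D2:**
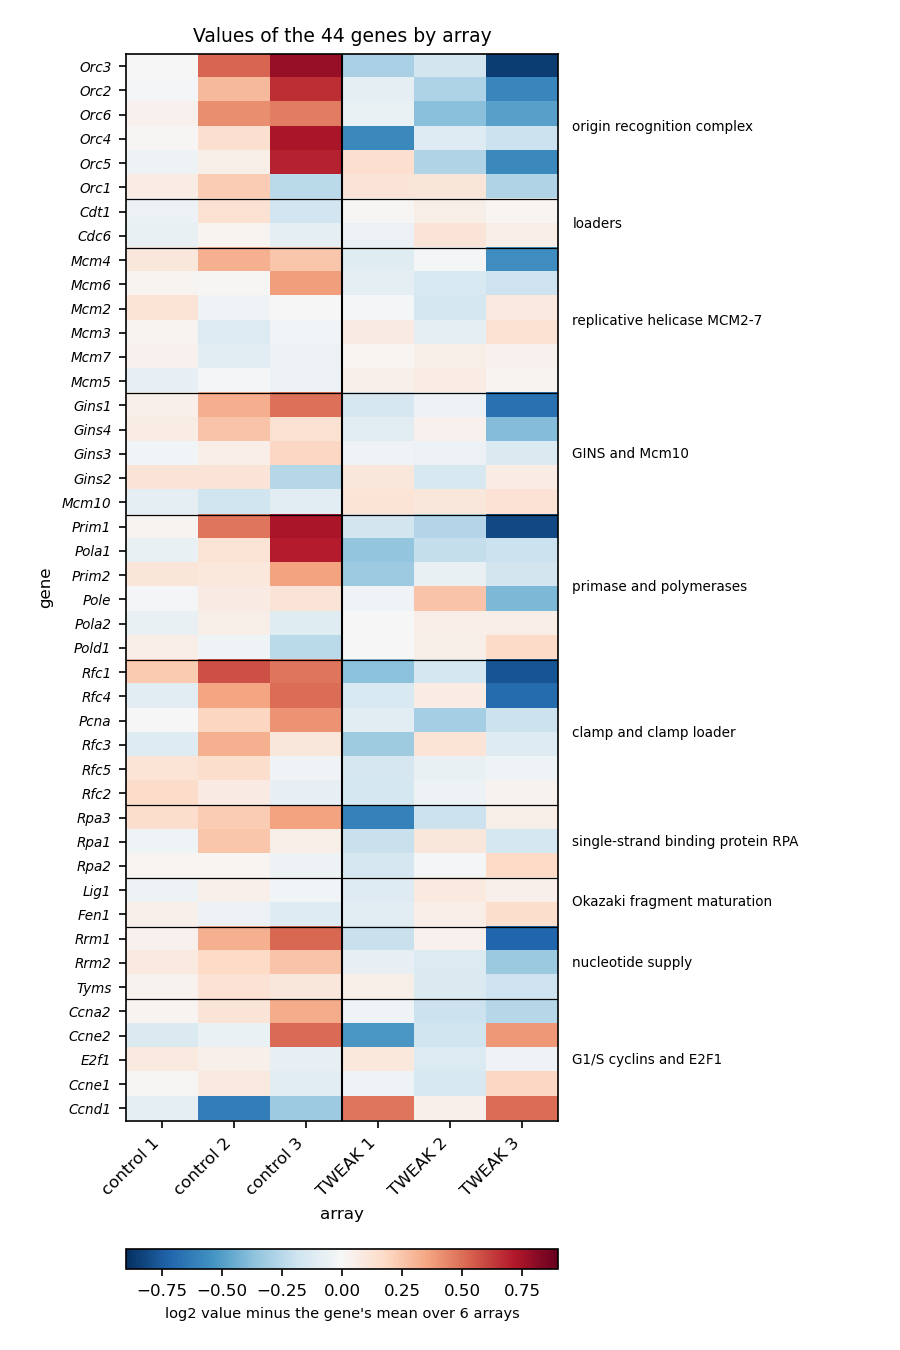
Colour gives each gene's log2 value in each array minus its own mean over the 6 arrays, with the genes in rows by role and the arrays in columns, controls left of the black line. The deepest red cells of Orc2 to Orc6 and of Prim1 are in control 3, the deepest blue cells of Orc2, Orc3, Orc5, Orc6 and Prim1 in TWEAK 3, while Mcm10 and Ccnd1 run the other way.

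Replication protein A, the trimer that coats single-stranded DNA, differed mainly in its smallest subunit. Rpa3 read 9.34, 9.41 and 9.54 in the controls and 8.57, 8.99 and 9.23 with TWEAK, with no overlap and with TWEAK 1 lowest, unlike the genes whose lowest array was TWEAK 3. Its difference was -0.50 (SE 0.16, limma adjusted p = 0.118), or -0.32 without TWEAK 1, while Rpa1 and Rpa2 differed by -0.17 (SE 0.11) and 0.01 (SE 0.10). The enzymes that finish Okazaki fragments, the flap nuclease Fen1 and the ligase Lig1, differed by 0.08 (SE 0.10) and 0.01 (SE 0.09), and a dimmer Fen1 probe set read 7.16, 6.99 and 7.06 in the controls and 7.05, 7.02 and 7.11 with TWEAK.

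Ribonucleotide reductase makes deoxyribonucleotides from ribonucleotides, and both of its S phase subunits lay lower. Rrm2, the small subunit, read 10.94, 11.03 and 11.11 in the controls against 10.78, 10.73 and 10.52 with TWEAK. The spread within each group was small, the groups did not overlap, and the difference was -0.35 (SE 0.10, limma adjusted p = 0.0843). Rrm1, the large subunit, read 11.15, 11.43 and 11.63 in the controls and 10.91, 11.15 and 10.40 with TWEAK, so that control 1 and TWEAK 2 met at 11.15 to the second decimal. Its difference was -0.58 (SE 0.20, limma adjusted p = 0.133), or -0.38 without TWEAK 3. Tyms, which makes thymidylate, differed by -0.18 (SE 0.09).

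The cyclin differences were of both signs. Ccnd1, the D-type cyclin that responds to growth signals in G1, read 11.17, 10.63 and 10.93 in the controls and 11.74, 11.30 and 11.76 with TWEAK. All TWEAK arrays lay above all controls, and the difference of 0.69 (SE 0.17, 1.62-fold higher) had a limma Benjamini-Hochberg adjusted p of 0.0653, just over the threshold. Ccnd1 was called in 5 of 15 alternative fits, among them that without control 1 (limma adjusted p = 0.0282), and its adjusted p over all 15 ran from 0.0104 to 0.192. Ccna2, the cyclin of S phase and G2, read 11.40, 11.49 and 11.71 in the controls and 11.34, 11.18 and 11.12 with TWEAK, apart by the step from control 1 to TWEAK 1, and differed by -0.32 (SE 0.11, limma adjusted p = 0.129).

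The E-type cyclins, which start S phase with Cdk2, showed no difference past their spread. Ccne1 was at 9.89 ± 0.09 and 9.90 ± 0.17 and Ccne2 at 6.94 ± 0.35 and 6.73 ± 0.46 (control and TWEAK, SD, n = 3). Ccne2 was highest in replicate 3 of both groups, at 6.70, 6.77 and 7.34 in control 1 to 3 and 6.31, 6.65 and 7.22 in TWEAK 1 to 3. E2f1, the activator of many of these genes, was at 10.26 ± 0.08 and 10.22 ± 0.11, a difference of -0.04 (SE 0.09).

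**Figure D3:**
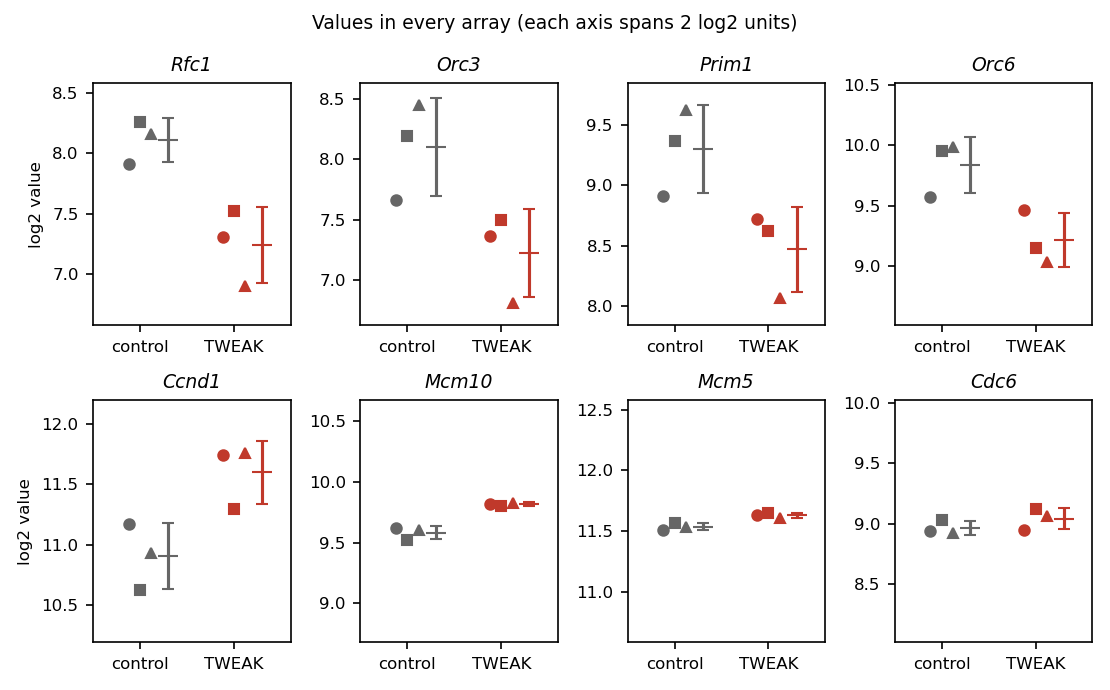
Log2 values (vertical axis, 2 log2 units in every panel) of 8 genes in the 3 control (grey) and 3 TWEAK (red) arrays; circle, square and triangle are replicates 1, 2 and 3, and the bar gives mean and SD. The groups are apart in 7 of the 8 panels, lower under TWEAK for Rfc1, Orc3, Prim1 and Orc6 and higher for Ccnd1, Mcm10 and Mcm5, and they overlap for Cdc6. The 8 genes are a selection: among all 44 the groups are apart in 19 on the lower and 3 on the higher side. Over all genes the shares are 13.5% and 12.9%.

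The control arrays themselves differed along the same genes. All 18 genes lower at an unadjusted p under 0.05 read higher in control 3 than in control 1 (100%), with a median step of 0.42, as did 89.9% of the 2889 genes of the whole array at that level and 37.9% of all genes. Of the 24 genes that did not reach it, 9 (37.5%) read higher in control 3. Median deviations of the 44 genes from their own means were 0.02, 0.12 and 0.11 in control 1 to 3 and -0.08, -0.06 and -0.15 in TWEAK 1 to 3, so the control medians lay above all TWEAK medians. Of the 18, 10 kept an unadjusted p under 0.05 with each array left out in turn: Orc2, Orc3, Orc6, Gins1, Prim1, Prim2, Pcna, Rfc1, Rpa3 and Rrm2. On the higher side Ccnd1 did so too, and how many of all genes did so was not counted. The count of 18 was 14 without control 3 or TWEAK 3, 15 without control 2 or TWEAK 1, 18 without TWEAK 2 and 19 without control 1. Over all genes the count of 2889 was 2143 without control 3 and 2323 without TWEAK 3. The part of the spread among controls in these differences was not tested.

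Other genes of the same pathway, 89 in all, were read from lists that leave out the 44. Limma called 7 of them lower and 1 higher, while 31 lay lower and 11 higher by the unadjusted p of 0.05, with a median of -0.11. The shares over all genes were 1.71% and 1.28% for calls and 13.1% and 8.15% for the unadjusted p. The 7 were 2 after cyclic loess and over probe sets. Leaving out control 2, control 3, TWEAK 1 or TWEAK 3 gave 0 calls in either direction, with 23 to 27 lower by limma's unadjusted p, and leaving out control 1 gave 20 lower and 5 higher. Without TWEAK 2 the calls were 3 lower and 0 higher.

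Among 34 other G1/S regulators limma called 4. Rb1, the retinoblastoma protein that restrains E2F, averaged 7.69 ± 0.39 over the controls and 6.60 ± 0.20 with TWEAK (SD, n = 3), without overlap, and fell by 1.09 (SE 0.19, limma adjusted p = 0.0365). The CDK inhibitors Cdkn2c (p18) and Cdkn1b (p27) fell by 0.82 (SE 0.12) and 0.78 (SE 0.13). Fbxo5 (Emi1), which inhibits the anaphase-promoting complex and so lets cyclin A build up, fell by 0.86 (SE 0.12). Of the 34, 4 were called lower and 0 higher, and 14 lay lower and 1 higher at an unadjusted p under 0.05. Over all genes the shares were 1.71% and 1.28% for calls and 13.1% and 8.15% for the unadjusted p. The 4 became 0 without control 2, control 3, TWEAK 1 or TWEAK 3, fits that called 0 to 16 of all genes lower. They became 3 without TWEAK 2 and 8 without control 1. The kinases that pair with these cyclins differed little, Cdk2 by -0.04, Cdk4 by 0.08 and Cdk6 by 0.01, and of the CDK inhibitors that did not pass, Cdkn1a (p21) differed by 0.04, Cdkn2a by 0.04, Cdkn1c by 0.18, Cdkn2b by 0.25 and Cdkn2d by -0.43.

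Among 35 other initiation and fork genes, limma called 2 lower: Mcm8, a helicase of recombination repair related to the Mcm ring, which fell by 0.66 (SE 0.12), and Mtbp, a partner in origin firing, which fell by 0.57 (SE 0.11). The median of this list was -0.26, and 14 lay lower and 3 higher at an unadjusted p under 0.05. Among 20 other nucleotide supply genes, deoxycytidylate deaminase Dctd rose by 0.59 (SE 0.09) and deoxycytidine kinase Dck fell by 0.42 (SE 0.08). The median of that list was 0.03, and by the unadjusted p 7 lay higher and 3 lower. Over all genes the median was 0.03, with 1.71% called lower and 1.28% higher, and 13.1% and 8.15% by the unadjusted p. In both lists limma called 0 genes when any 1 array other than control 1 was left out. Without control 1 it called 9 lower and 1 higher of the 35, and 3 lower and 4 higher of the 20. That fit called 1412 of all genes lower and 464 higher.

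Mitotic genes were read beside them as the nearest group in the cell cycle. Of 30, limma called 5 lower (Ccnb2, Spc25, Cenpe, Bub1 and Kif11) and 0 higher, 18 lay lower at an unadjusted p under 0.05, and the median was -0.39. The corresponding values of the 44 replication and G1/S genes were 1 lower, 18 lower and -0.18. Over all genes 1.71% were called lower and 13.1% lay lower by limma's unadjusted p, with a median of 0.03. The count of mitotic genes called lower was 1 (Spc25) without control 3 and 0 without control 2, TWEAK 1 or TWEAK 3. Without TWEAK 2 it was 1, but none of the 5, whose limma adjusted p then ran from 0.0569 to 0.0734. Without control 1 it was 10. In these fits with 1 array left out, 13 to 18 lay lower by limma's unadjusted p. It was 0 over probe sets (16 by limma's unadjusted p), 1 after cyclic loess, 2 with centred arrays, 12 with array weights and 14 with the residual component. The difference between the lists was not tested.

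**Figure D4:**
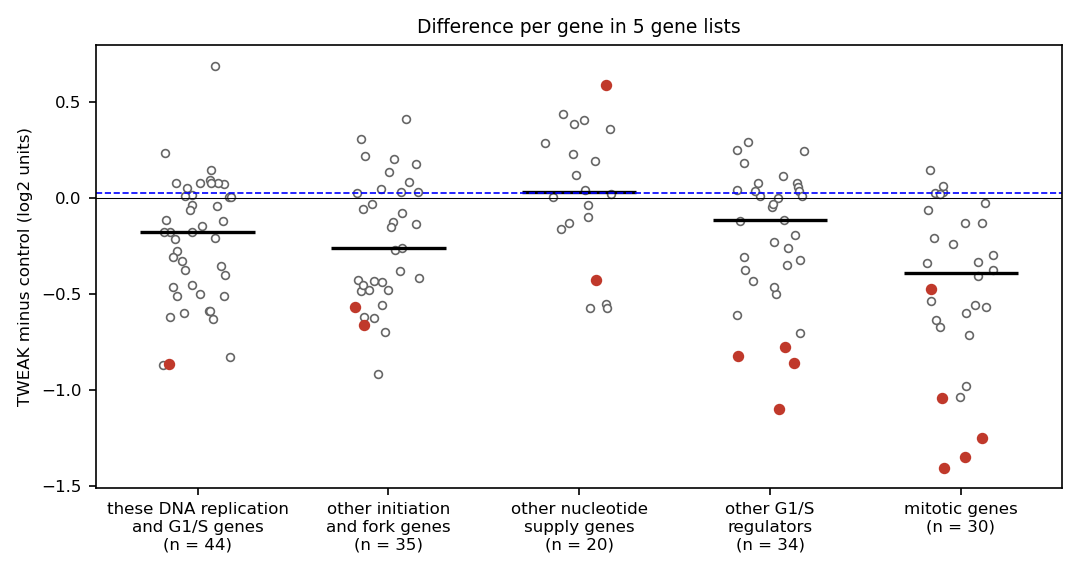
Each point is the difference between TWEAK and control (log2 units, vertical axis) of a gene, for the 44 genes, 3 lists of other pathway genes and 30 mitotic genes; red points passed limma's test, black bars are list medians and the dashed line is the median of all genes (0.03). The medians are -0.18, -0.26, 0.03, -0.11 and -0.39 from left to right.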

How the data were processed

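Per the labels' protocols, Trizol yielded total RNA, which a GeneChip WT PLUS reagent kit labelled, although the labels give the molecule as polyA RNA. The authors deposited log2 values per probe set, for which the submitters' processing notes name RMA and Affymetrix Expression Console. The sources used here give no version, annotation release or genome build. Quantile normalization, a step of RMA, equalises the arrays' distributions, so a shift of most transcripts would not be seen. The deposited table also holds the authors' ratio (TWEAK over control), p-value and false discovery rate, per the file headers. It was used because both deposited tables held the same log2 values (largest difference 1.78e-15).

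Of 28361 probe sets, 25465 had 1 symbol, updated by accession (22115), symbol (1815) or synonym (625) through RefSeq names of assembly GRCm38.p6, and 910 kept theirs. The file names the 6 ORC genes by older symbols. The brightest probe set stood for each of 22061 genes, with no filter on dim genes.

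Differences were tested with limma 3.58.1 (lmFit, eBayes, no block) in R 4.3.3, across all genes with Benjamini-Hochberg adjustment at 0.05. SE is the moderated standard error and folds are 2 to the power of the difference. Tables and figures used Python 3.11.15, pandas 2.3.3 and matplotlib 3.10.9. The fit was tested on simulated data of the 22061 genes. Of genes changed by 1 on the log2 scale 99 of 100 were recovered, and of those changed by 2 100 of 100, with 15 false calls. These shares hold for the simulated data only, and recovery in the deposited arrays was not tested. There, of the mitotic genes, Cenpe (-1.04) passed at a limma adjusted p of 0.0463 and Top2a (-1.03) missed at 0.0605. The alternatives were a replicate block, trend and robust settings, only bright genes, the mean of probe sets, adjustment over probe sets, median centring, cyclic loess, array weights, a residual component and each array left out.

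The genes and lists were chosen with earlier results of these data known. Every one of the 44 genes is named. Values in every array are given for those past the threshold, for the 16 with the smallest p and for the 2 with the widest control range, and further genes (Mcm5, Cdc6, Rfc4, Ccne2 and the dimmer Fen1 probe set) were added after their values were seen. From the other lists, genes past the threshold are named, and the CDK and CDK inhibitor genes were added after their values were seen. The number of arrays limits the precision.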

Additional observations from a re-analysis of the deposited data

How the results depend on the processing

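The 15 alternative fits left the median difference of the 44 genes between -0.22 and -0.14, against -0.18, and the count of calls is what moved. The 1 gene called lower became 0 with the replicate block, with all probe sets adjusted one by one and after cyclic loess, 12 with array weights, 13 with the first component of the within-group residuals as a covariate, and 0 to 6 with 1 array left out. The 0 genes called higher became 1 (Ccnd1) with the replicate block, with trend and robust settings and with the residual component, 2 with array weights, and 0 to 1 with 1 array left out. Array weights and the residual component shared 10 called genes (Orc2, Orc3, Orc6, Mcm4, Gins1, Prim1, Rfc1, Rrm1, Rrm2 and Ccnd1). Array weights gave control 2 a weight of 5.60 and no other array over 0.945. All 20 genes with an unadjusted p under 0.05 kept their sign in every alternative that tested them. Over all 22061 genes, the 378 called lower became 85 with the replicate block, 29 over probe sets and 84 after cyclic loess. They became 2109 with array weights, 2006 with the residual component and 0 to 1412 with 1 array left out. The 283 called higher over all genes became 122 with the replicate block, 354 with trend and robust settings and 868 with the residual component. With array weights they were 1114, and with 1 array left out 1 to 464.

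Of the 89 other pathway genes, the 7 lower became 1 with the replicate block, 11 among bright genes, 2 over probe sets, 2 after cyclic loess, 27 with array weights, 22 with the residual component and 0 to 20 with 1 array left out. The 1 higher became 0 with the replicate block, 2 with trend and robust settings, 2 among bright genes, 8 with array weights, 9 with the residual component and 0 to 5 with 1 array left out. Over all genes the 661 calls became 207 with the replicate block, 1020 among bright genes, 103 over probe sets, 267 after cyclic loess, 3223 with array weights, 2874 with the residual component and 1 to 1876 with 1 array left out. Higher calls were 42.8% of all in the reported fit, 53.4% with centred arrays and 68.5% after cyclic loess.

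Among the 44 genes, signs turned in 9. With array weights Ccne1 was at -0.08, Cdt1 at -0.07, Gins2 at -0.08, Lig1 at -0.03 and Rpa2 at -0.03. With 1 array left out Ccne1 ran from -0.09 to 0.08, Cdt1 from -0.02 to 0.14, E2f1 from -0.10 to 0.01, Gins2 from -0.11 to 0.09, Lig1 from -0.02 to 0.07, Mcm2 from -0.12 to 0.01, Orc1 from -0.16 to 0.09, Pole from -0.28 to 0.05 and Rpa2 from -0.08 to 0.09. Among the other genes with no call, 1 array moved Ccne2 (-0.45 to -0.00), Pold1 (0.07 to 0.21) and Rpa1 (-0.27 to -0.09) by over 1.5 times. It also did so for Fen1 (0.02 to 0.15), Mcm3 (0.04 to 0.14) and Mcm7 (0.04 to 0.11). Cdc6 (0.04 to 0.13) and Pola2 (0.05 to 0.13) moved as far, besides the genes whose values without 1 array are given above. The cause of these moves was not tested.

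The labels do not say that equal replicate numbers share an experiment. Deviations from the group means correlated at 0.196, 0.359 and -0.0716 over genes for number 1, 2 and 3. For arrays of unequal number the correlations ran from -0.487 to 0.288. These values do not settle whether a number marks a shared experiment, so the replicate block (207 calls over all genes) is given only as an alternative. With it the Rfc1 adjusted p in limma was 0.0616, and the 5 mitotic genes called lower became 0 (16 by limma's unadjusted p). Signal over background was not measured, and Orc4 and Pola1 are no brighter than the median gene.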

Other observations

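Replication-dependent histone genes, which are transcribed in S phase, were sought by name, as every gene whose symbol in the file begins with Hist1h to Hist4h. The name does not show that each of the 44 genes found this way is replication-dependent. Limma called 0 of these 44 histone genes in either direction, while 8 lay higher and 0 lower by limma's unadjusted p of 0.05. Of them 16 were apart between groups on the higher side and 1 on the lower side, and the median was 0.09. Over all genes 8.15% lay higher by the unadjusted p, and 12.9% were apart on the higher and 13.5% on the lower side. H3c15 (Hist2h3c2 in the file) read 8.94, 9.34 and 9.07 in the controls and 9.25, 10.11 and 10.02 with TWEAK, so control 2 and TWEAK 1 overlapped, and H2bc8 (Hist1h2bg) read 8.56, 8.70 and 8.65 against 8.79, 9.32 and 9.48 without overlap. Their differences were 0.68 (SE 0.22, limma adjusted p = 0.126) and 0.56 (SE 0.17, limma adjusted p = 0.0986), and both were picked after their values were seen. The median of the histone genes was 0.04 after cyclic loess. These genes are near-identical copies, which leaves single values uncertain, and most of their transcripts are known to lack a polyA tail.

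Among the nucleotide supply genes that did not pass, the purine enzymes Gart and Paics differed by 0.41 and -0.57, the pyrimidine enzyme Cad by 0.36, and thymidine kinase Tk1 by 0.20 (chosen after their values were seen). The kinase Cdc7 and its activator Dbf4, which trigger origin firing, differed by -0.48 and -0.70, and geminin (Gmnn), the inhibitor of Cdt1, by -0.43, with limma adjusted p of 0.150, 0.127 and 0.0548. These genes were likewise singled out after their values were seen.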
